A study of Homo sapiens with 16 samples.

Results

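Interferon and STAT regulator genes are taken here as 9 protein-coding genes, IRF1, IRF2, IRF7, IRF9, STAT2, STAT3, IFIT1, IFIT3 and ISG15, of 20033 protein-coding genes measured in GENCODE hg38. H3K27ac ChIP-seq peaks, which mark active promoters and enhancers, were read around them in 2 established lines of human triple-negative breast cancer (TNBC), MDA-MB-231 and Hs578T. Both lines had control and CRISPR knockout (KO) versions, the knockout removing Fn14, the TWEAK receptor that TNFRSF12A encodes. All cells were starved for 8 h and were then left untreated or given TWEAK at 10 ng/ml for 48 h, with TWEAK replenished after 24 h, and 2 peak lists were deposited for each of the 8 groups, hence 16 lists. For each gene, the peaks, covered length and highest fold enrichment (the peak caller's ratio over local background, written for each peak) were recorded within 2 kb of the start site and within the gene body extended by 50 kb, called the locus below. The genotype labels do not say whether the Fn14 KO cells were 1 clone or a pool. The methods call the ChIP-seq replicates biological, while the labels only number them, and p-values measure the spread between these lists.

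Type I interferons bind their receptor and, through the kinases JAK1 and TYK2, lead to phosphorylation of STAT2. Phosphorylated STAT2 works with IRF9 in a complex that binds the interferon-stimulated response element (ISRE) of genes such as IFIT1, IFIT3 and ISG15. IRF7 and IRF1 are themselves interferon-responsive activators, IRF2 competes with IRF1 for its sites, and STAT3 is the main mediator of cytokines of the IL-6 family. TWEAK is a TNF-family cytokine best known for engaging NF-κB and MAPK signalling.

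In hg38 the minus-strand records are IRF1 at chr5:132440440-132508719, IRF2 at chr4:184385702-184474558, IRF7 at chr11:612553-615983, STAT2 at chr12:56341597-56360203 and STAT3 at chr17:42313324-42388540. The plus-strand records are IRF9 at chr14:24161234-24168043, IFIT3 at chr10:89327307-89377473, IFIT1 at chr10:89392546-89406487 and ISG15 at chr1:1001138-1014540. The loci also hold other genes, such as STAT5A, STAT5B and CAVIN1 beside STAT3, IFIT2 and IFIT5 beside IFIT1 and IFIT3, and RAD50 and IL5 beside IRF1. A peak in a locus is therefore not assigned to the member as its target.

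The promoter sequences are shown because some of them hold matches to the ISRE or to other elements searched here. Of the 9 genes, 7 were matched by symbol in the RefSeq promoter table (GRCh38.p14), and their start was 0 bp from the start used here. IRF2 and IRF7 had no entry. The 250 bases before the start of 4 of them follow, in the direction of transcription, in lower case with motif matches in capitals. The ISRE core (GAAANNGAAA), GAS (TTCNNNGAA, the element of STAT dimers), AP-1 (TGANTCA) and the kappaB site were searched on both strands, and overlapping matches run together in the capitals.
IFIT1 (chr10:89392373-89392622, plus strand): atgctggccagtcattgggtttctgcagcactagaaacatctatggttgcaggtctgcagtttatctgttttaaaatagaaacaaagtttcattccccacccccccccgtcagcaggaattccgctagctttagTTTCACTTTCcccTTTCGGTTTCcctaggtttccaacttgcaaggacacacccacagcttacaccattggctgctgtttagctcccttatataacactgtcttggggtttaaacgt
IFIT3 (chr10:89327747-89327996, plus strand): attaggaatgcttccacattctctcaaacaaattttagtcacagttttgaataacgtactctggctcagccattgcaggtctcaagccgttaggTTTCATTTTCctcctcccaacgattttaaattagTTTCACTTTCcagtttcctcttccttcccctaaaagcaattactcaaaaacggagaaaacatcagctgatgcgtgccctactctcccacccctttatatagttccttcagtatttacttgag
ISG15 (chr1:1013247-1013496, plus strand): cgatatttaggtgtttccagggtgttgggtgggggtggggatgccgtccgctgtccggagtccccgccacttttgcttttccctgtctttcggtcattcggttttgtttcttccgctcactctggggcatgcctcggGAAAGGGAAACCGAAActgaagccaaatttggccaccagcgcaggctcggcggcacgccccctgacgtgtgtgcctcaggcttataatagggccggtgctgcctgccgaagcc
IRF1 (chr5:132490774-132491023, minus strand): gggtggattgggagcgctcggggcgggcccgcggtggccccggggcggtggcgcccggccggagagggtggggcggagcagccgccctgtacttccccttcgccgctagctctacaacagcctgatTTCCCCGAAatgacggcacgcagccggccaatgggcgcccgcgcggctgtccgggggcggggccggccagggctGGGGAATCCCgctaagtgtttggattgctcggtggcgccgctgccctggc

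Capitals mark 2 ISRE cores in each of IFIT1, IFIT3 and ISG15. In IFIT1 these lay between 116 and 94 bases before the start, in IFIT3 between 156 and 113, and in ISG15 between 113 and 98. An ISRE core was present in 839 of 27305 such promoters (3.07%). IRF1 held a GAS match 124 to 116 bases before its start, an element found in 6.78% of promoters, and a kappaB match 50 to 41 bases before it, found in 5.05%. IRF9 also held a GAS match, STAT2 and STAT3 held none of the 4 motifs, and no member promoter held AP-1, which 6.6% of promoters did.

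The 16 lists held 39544 to 47197 peaks covering 64.2 to 88.9 Mb, with a median enrichment of 5.0 to 5.89. The read depth behind them is unknown. The median −log10 q of the MDA-MB-231 Fn14 KO lists was 5.79 to 7.69, against 9.44 to 10.8 in the control lists of that line, and this moves with every comparison of genotype in that line. Markers of mesenchymal-like TNBC lines (VIM, CD44, AXL, FN1) had a start-site peak in all 16 lists, and ESR1, PGR, GATA3, CDH1 and the immune and fibroblast markers examined in 0, while FOXA1 had one in 2 of the MDA-MB-231 lists. The keratin genes KRT8 and KRT18 and EPCAM had a peak in all lists. The TNFRSF12A start site carried a peak in all 16 lists (16.2 to 38.2-fold), which does not check the knockout.

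To examine whether TWEAK altered promoter acetylation of the members, the highest enrichment within 2 kb of each start site was compared. All 9 members had a single peak there in all 16 lists, so all were active-marked before TWEAK, as were 10909 genes in all. In control cells, the start-site enrichment was higher with TWEAK for 9 of 9 members in MDA-MB-231 and 8 of 9 in Hs578T, but no member passed an adjusted p of 0.05 in either line (limma with Benjamini-Hochberg adjustment over all genes). The median member difference was 0.25 in MDA-MB-231 and 0.23 in Hs578T on the log2 scale, beside 0.04 and 0.05 over all genes.

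IFIT1, an RNA-binding effector that blocks translation of foreign RNA, had the largest difference of the 9 in MDA-MB-231 control cells. Its start-site enrichment was 5.17 and 4.86 untreated against 7.19 and 6.61 after TWEAK in MDA-MB-231 control cells, and 4.51 and 4.38 against 5.12 and 5.14 in Hs578T control cells. In Fn14 KO cells it was 6.39 and 5.53 untreated against 5.02 and 6.14 after TWEAK in MDA-MB-231, and 4.55 and 4.09 against 4.87 and 5.05 in Hs578T. Untreated and TWEAK lists were thus apart in both control lines and also in Hs578T Fn14 KO cells. The limma difference in MDA-MB-231 control cells was 0.46 ± 0.15 (SE) with an adjusted p of 0.0525, and it passed the threshold without the variance trend (adjusted p = 0.0298) and after centring each list on its median (adjusted p = 0.0488), with a range of 0.0298 to 0.278 over all alternatives.

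IRF1, the activator after which the family is named, had 8.99 and 10.5 untreated against 10.8 and 12.5 with TWEAK at its start site in MDA-MB-231 control cells, and 7.40 and 5.94 against 7.92 and 8.33 in Hs578T control cells. In cells lacking Fn14, its values were 10.5 and 8.12 against 8.27 and 8.37 in MDA-MB-231, and 9.47 and 7.11 against 8.21 and 8.06 in Hs578T. STAT2 had 6.65 and 7.09 untreated against 8.25 and 8.03 after TWEAK in MDA-MB-231 control cells, and 5.24 and 5.49 against 6.93 and 6.19 in Hs578T control cells. IRF1, STAT2 and IFIT1 were the 3 members whose TWEAK lists lay above the untreated lists in both control lines, whereas 19.9% of all genes did so. In Fn14 KO cells 0 members did so, against 0.898% of all genes.

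The test of the genotype difference, the TWEAK effect in control minus that in Fn14 KO cells averaged over both lines, was above 0 for 9 of 9 members but passed for none. It was 0.32 ± 0.14 (SE) for IRF2, 0.36 ± 0.16 for IRF1 and 0.36 ± 0.17 for STAT2, with adjusted p of 0.152, 0.16 and 0.187. These were the 3 members with an unadjusted p under 0.05 there by limma, beside 2551 of all 10909 genes.

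IFIT3, a partner that stabilises IFIT1 on RNA, had 22.3 and 14.6 untreated against 30.8 and 19.6 with TWEAK in Hs578T control cells, higher for each replicate number, and 14.6 and 11.7 against 13.7 and 12.6 in MDA-MB-231 control cells. Its difference in Hs578T was 0.45 ± 0.17 (SE) with an adjusted p of 0.112. With the replicate number as a block the adjusted p was 0.00707, which assumes that same-numbered lists are paired. Deviations of same-numbered Hs578T control lists correlated at −0.02 over start sites, so pairing is not shown there. The difference ranged from 0.12 without control TWEAK replicate 1 to 0.77 without control TWEAK replicate 2, and was 0.76 and 0.14 without control untreated replicate 1 and 2. ISG15, a ubiquitin-like modifier, had 7.59 and 9.22 against 9.83 and 10.9 in MDA-MB-231 control cells but 6.63 and 6.82 against 6.54 and 6.85 in Hs578T control cells. Its adjusted p in MDA-MB-231 was 0.204, and the difference of its TWEAK effect between lines was −0.31 ± 0.21 (SE), with an adjusted p of 0.998. IRF2, the competitor of IRF1, had 12.3 and 16.1 against 17.7 and 16.1 in MDA-MB-231 control cells and 14.0 and 12.7 against 16.1 and 15.2 in Hs578T control cells, with differences of 0.26 and 0.23. The remaining members, IRF7, IRF9 and STAT3, had TWEAK differences between 0.01 and 0.15 in MDA-MB-231 and between 0.10 and 0.23 in Hs578T control cells.

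Over all genes, 10.6% passed after TWEAK in MDA-MB-231 and 6.7% in Hs578T control cells, and 10.2% in the genotype difference. Without Fn14, 0% passed in MDA-MB-231 and 0.0183% in Hs578T, with 0 of the 9 members in either line. At an unadjusted p under 0.05 there were 0 members by limma, beside 425 of all genes in MDA-MB-231 and 186 in Hs578T. The TWEAK effect differed between the lines for 0.0275% of genes and for 0 members. By limma the unadjusted p was under 0.05 for 2 members in MDA-MB-231, 1 in Hs578T and 3 in the genotype difference. Over all 10909 genes it was so for 2653, 2215 and 2551.

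**Figure D1:**
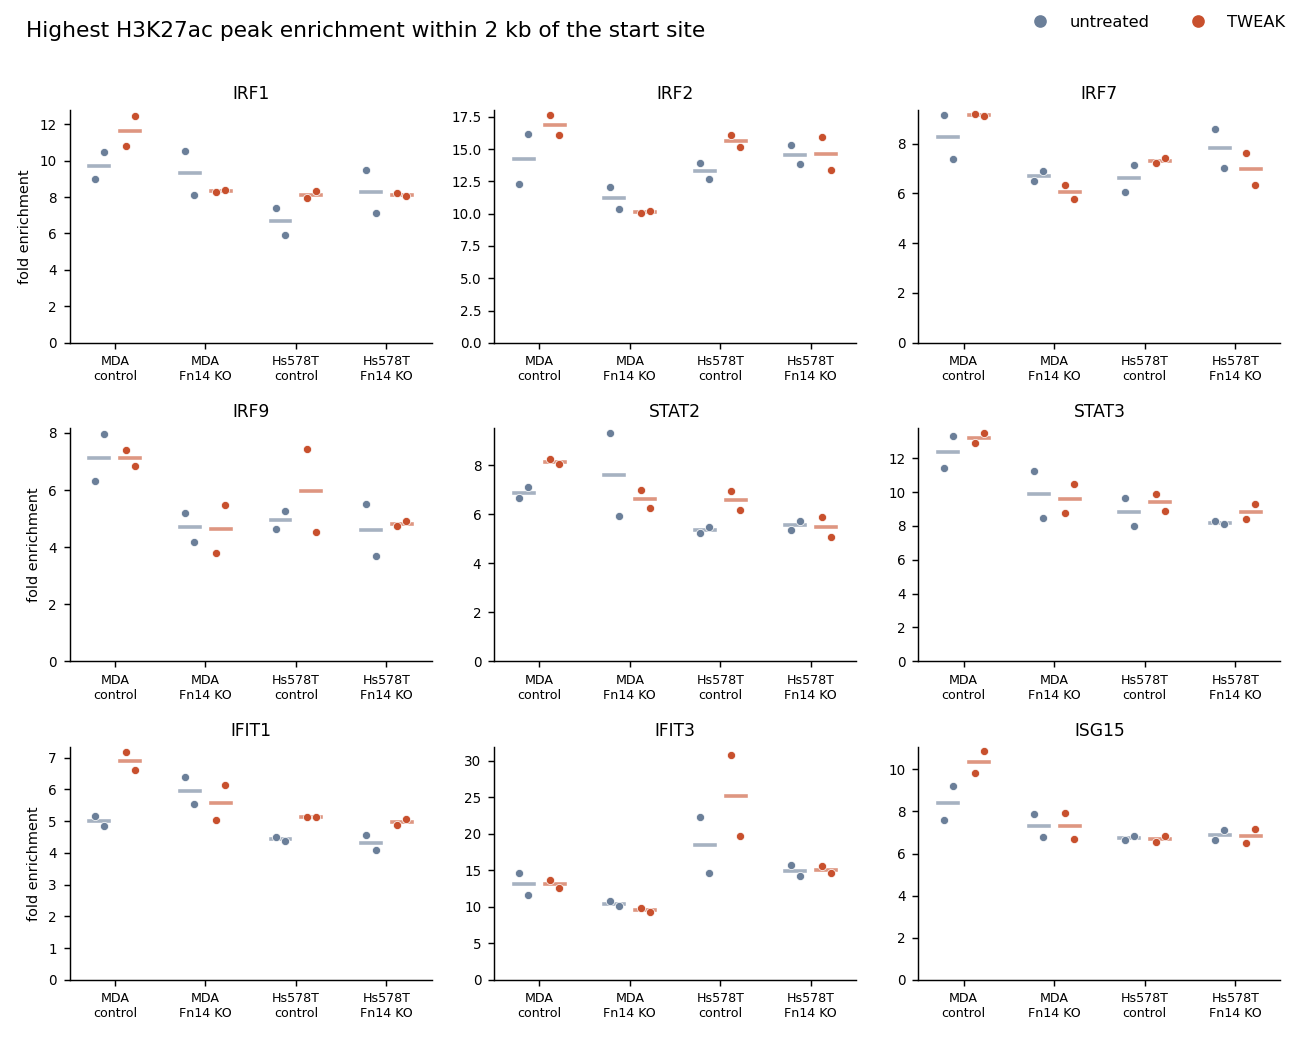
Highest fold enrichment of an H3K27ac peak within 2 kb of each start site (y axis, from 0), 1 point per list, untreated in blue-grey and TWEAK in orange, with a bar at the mean of 2. TWEAK points lie above untreated points in both control lines for IRF1, STAT2 and IFIT1, and in no gene in both Fn14 KO lines.

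**Figure D2:**
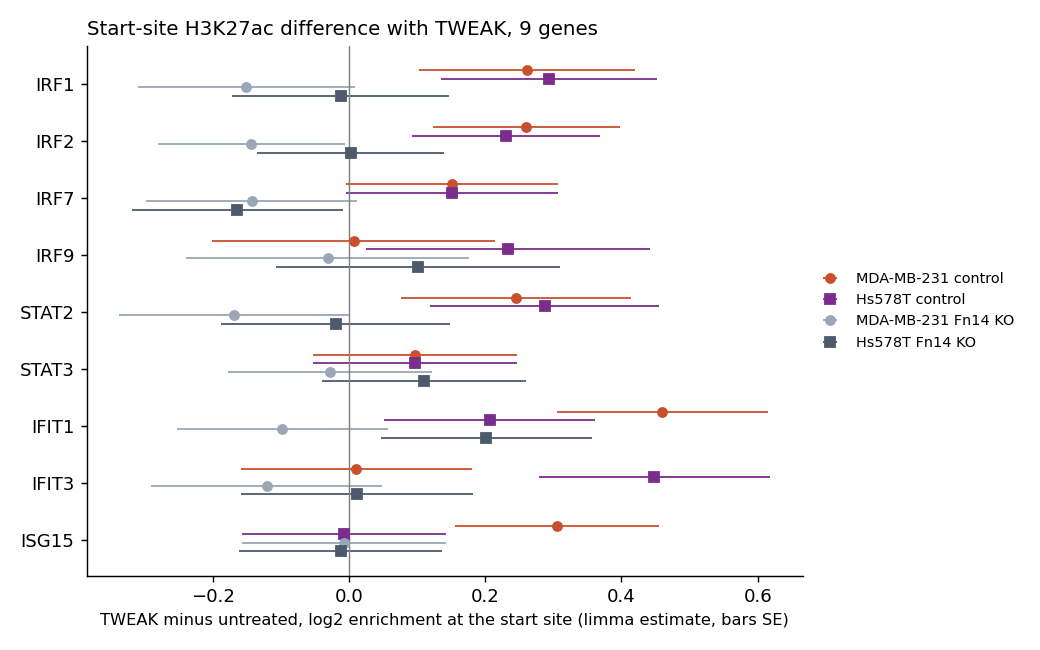
TWEAK minus untreated log2 enrichment at the 9 start sites, as limma estimates with SE bars, for each line and genotype. Control estimates are at or right of 0 for each gene but ISG15 in Hs578T, and the MDA-MB-231 Fn14 KO estimates are all below 0.

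Changes away from the start sites were examined next, in the peaks of each locus. The highest enrichment in the locus was a description without a test. Both TWEAK lists lay above both untreated lists in both control lines for 6 of the 9 members, IRF1, IRF2, STAT2, STAT3, IFIT1 and IFIT3, beside 30.9% of all genes with a locus peak in all lists. In Fn14 KO cells 0 of 9 did so, beside 0.43% of all genes. The STAT2 locus went from 24.0 and 27.7 to 39.3 and 37.1 in MDA-MB-231 control cells, and from 27.5 and 21.4 to 31.5 and 33.6 in Hs578T control cells. The STAT3 locus went from 19.1 and 17.3 to 24.9 and 24.0, and from 18.6 and 19.2 to 26.0 and 27.6. IFIT1 and IFIT3 lie near each other and shared 5 regions, so most of their values rest on the same peak.

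**Figure D3:**
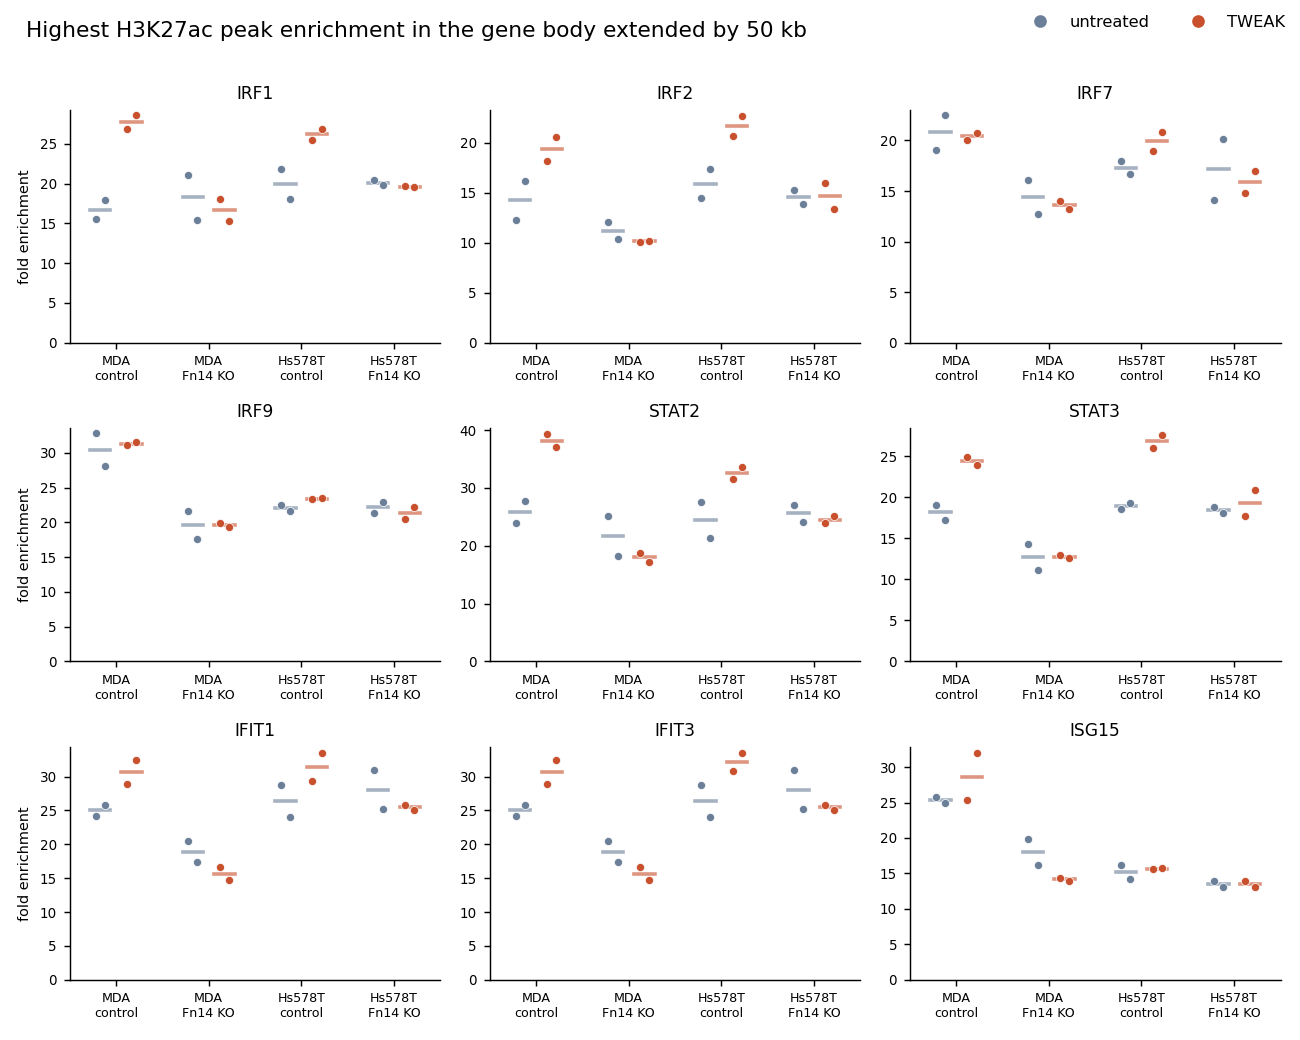
Highest fold enrichment of an H3K27ac peak in each gene body extended by 50 kb (y axis, from 0), 1 point per list, untreated in blue-grey and TWEAK in orange, with a bar at the mean of 2. In IRF1, IRF2, STAT2, STAT3, IFIT1 and IFIT3 the orange points stand above the blue-grey points in both control lines and for no gene in both Fn14 KO lines.

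To locate these changes, peaks of all lists were merged into 55219 regions, each found in 2 lists or more. The member loci held 84 of them, 56 with a peak in all 16 lists (66.7%, beside 51.3% of all regions). The highest enrichment of each region present in all lists was then tested by limma over 28337 regions, a test added after the values were seen. With TWEAK, 14 of the 56 member regions rose and 0 fell in MDA-MB-231 control cells, while 30.4% of all regions passed. In Hs578T control cells 9 rose and 2 fell, while 25% of all regions passed, and in the genotype difference 13 were higher and 1 lower, while 28.6% passed. In cells lacking Fn14, 0 of the 56 passed by limma in either line, where 0% of all regions passed in MDA-MB-231 and 0% in Hs578T. The unadjusted p was under 0.05 for 3 of the 56 in MDA-MB-231 and 0 in Hs578T, beside 1392 and 410 of the 28337 regions. In control cells and in the genotype difference, the member share passing in either direction was therefore near or below that of all regions. Of the 28337 regions, 5481 rose and 3122 fell in MDA-MB-231 control cells, and 4419 rose and 2660 fell in Hs578T control cells. In the genotype difference 5707 were higher and 2399 lower. Without centring, the member share that was higher was thus not below that of all regions, while the share that was lower was smaller. The median TWEAK difference of the 56 was 0.16 in MDA-MB-231 and 0.21 in Hs578T control cells, beside 0.06 and 0.05 over all. After centring each list on its median, the member splits were 12 higher and 1 lower in MDA-MB-231, 7 and 3 in Hs578T, and 12 and 1 in the genotype difference. The shares over all regions after centring are not given here, so these splits are not set against them.

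In all, 7 regions in the loci of 5 members passed in both control lines and in the genotype difference, a rule for naming them that was chosen after their values were seen. They were 12.5% of the 56, and 12.2% of all regions were higher in the same 3 comparisons. All 7 were higher with TWEAK in control cells, and the genotype difference of each kept its call in all 21 alternatives run for it. The difference in TWEAK effect between the lines did not pass for any of the 56, as for nearly all regions (0.00706% passed).

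The strongest of the 7 lay at chr5:132438768-132440598, 51.1 kb past the IRF1 start and outside canonical transcripts. Its enrichment was 3.42 and 3.43 untreated against 8.78 and 9.44 after TWEAK in MDA-MB-231 control cells, and 4.58 and 3.64 against 11.2 and 9.99 in Hs578T control cells. In Fn14 KO cells it was 4.58 and 3.99 against 3.53 and 4.46 in MDA-MB-231, and 4.76 and 4.09 against 3.44 and 4.16 in Hs578T. Every TWEAK control list lay above every other list, and the KO lists overlapped. The log2 difference was 1.41 ± 0.17 (SE) in MDA-MB-231 and 1.37 ± 0.17 in Hs578T control cells, with adjusted p of 4.39e-10 and 1.87e-09, and the genotype difference was 1.56 ± 0.17 with an adjusted p of 2.19e-11.

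STAT3, on chromosome 17, held a pair of these regions in its gene body. The first, at chr17:42319310-42321232 in an intron of STAT3 68.2 kb past the start, had 3.17 and 4.25 untreated against 7.5 and 6.75 after TWEAK in MDA-MB-231 control cells and 5.81 and 5.63 against 9.17 and 11 in Hs578T control cells. Without Fn14, it had 5.24 and 5.07 against 4.44 and 4.27, and 6.04 and 5.95 against 6.05 and 5.01. The TWEAK lists were thus higher in both control lines and not higher in either KO line. The log2 difference was 0.95 ± 0.17 (SE) and 0.81 ± 0.17, and the genotype difference was 1.07 ± 0.17 with an adjusted p of 7.54e-07. Untreated MDA-MB-231 Fn14 KO cells were 0.49 above untreated control cells at this region (adjusted p = 0.0215). The second, a 10901 bp region at chr17:42321842-42332742 that overlaps coding exons of STAT3, had 19.1 and 17.3 against 24.9 and 24.0, and 18.6 and 19.2 against 26.0 and 27.6. Its KO values were 14.3 and 11.1 against 12.9 and 12.5, and 18.8 and 18.1 against 17.7 and 20.9, and its genotype difference was 0.43 ± 0.13 with an adjusted p of 0.00937. In MDA-MB-231 its own call was lost without control untreated replicate 2 (adjusted p = 0.0973) or control TWEAK replicate 1 (0.0792).

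The middle 300 bases of the intronic STAT3 region are shown because its TWEAK differences were largest among regions wholly inside a member's gene record. They come from hg38, plus strand, in lower case, with none of the 4 motifs to capitalise.
STAT3 region (chr17:42320121-42320420): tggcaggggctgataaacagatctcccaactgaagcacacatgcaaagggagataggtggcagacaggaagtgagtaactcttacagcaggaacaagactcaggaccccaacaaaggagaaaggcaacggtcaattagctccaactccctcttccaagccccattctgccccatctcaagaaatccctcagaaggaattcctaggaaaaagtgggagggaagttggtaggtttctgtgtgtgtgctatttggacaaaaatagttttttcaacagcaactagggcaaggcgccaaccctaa

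In the middle 300 bases of 28319 regions on the main chromosomes, AP-1 was present in 20.4% and kappaB in 5.18%. Among the 56 member regions, 4 held AP-1 and 4 kappaB. The region 32.4 kb past the IRF1 start, described next, was one of those with AP-1. A match describes letters in the window and was not tested as a binding site.

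A further IRF1 region, at chr5:132455163-132461566 in an intron of the protein-coding record ENSG00000283782, had 11.9 and 13.3 against 20.6 and 20.9 in MDA-MB-231 control cells, and 21.8 and 16.8 against 25.5 and 26.8 in Hs578T control cells. Its KO values were 19.1 and 15.3 against 17.9 and 15.3, and 20.4 and 19.8 against 19.2 and 19.6. The genotype difference was 0.64 ± 0.13 (SE) with an adjusted p of 0.000124, and the Hs578T call was lost without control untreated replicate 2 (adjusted p = 0.289) or control TWEAK replicate 2 (0.0779). A region 6.20 kb before the IRF1 start went from 15.5 and 17.9 to 26.9 and 28.6 in MDA-MB-231 control cells and passed there and in the genotype difference, but had an adjusted p of 0.0773 in Hs578T, where it went from 20.5 and 18.0 to 24.4 and 23.6.

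The STAT2 region of this kind, at chr12:56332900-56335527, covers the start of PAN2, a deadenylase subunit, 25.9 kb past the STAT2 start, so it is in the STAT2 locus without being the STAT2 promoter. It held the locus highest values given above for control cells, and in Fn14 KO cells it had 25.2 and 18.2 against 18.7 and 17.3, and 27.1 and 24.1 against 23.9 and 25.1. The genotype difference was 0.65 ± 0.13 (SE) with an adjusted p of 7.35e-05, and the Hs578T call was lost without control untreated replicate 2 (adjusted p = 0.328) or control TWEAK replicate 2 (0.106).

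For IRF2 the region lay at chr4:184381918-184386634, 90.3 kb past the start at the far end of the gene. It had 11.7 and 16.1 against 18.2 and 20.6 in MDA-MB-231, and 14.4 and 17.4 against 20.6 and 22.7 in Hs578T control cells. Its KO values were 11.9 and 8.87 against 8.79 and 8.13, and 14.1 and 13.5 against 12.9 and 13.3. Both TWEAK lists thus lay below both untreated lists in each KO line, though neither KO difference passed by limma. These lower KO values enter the genotype difference. The genotype difference was 0.65 ± 0.15 (SE) with an adjusted p of 0.000304, and the calls within MDA-MB-231 and Hs578T were lost without control untreated replicate 1 (adjusted p of 0.295 and 0.230) or control TWEAK replicate 2 (0.113 and 0.140).

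The last of the 7, an 11318 bp region at chr10:89274923-89286240, lies 47.4 kb before the IFIT3 start and 15806 bp from that of IFIT2. It had 10.1 and 12.4 against 14.1 and 15.0, and 12.6 and 12.6 against 15.4 and 17.5 in control cells, and 9.36 and 11.5 against 8.15 and 8.21, and 13.5 and 12.3 against 12.9 and 12.1 in Fn14 KO cells. The genotype difference was 0.57 ± 0.14 (SE) with an adjusted p of 0.00128, while the calls in MDA-MB-231 and Hs578T control cells (adjusted p of 0.0382 and 0.0405) were lost after centring (0.0747 and 0.0543). They were also lost without control untreated replicate 1 of MDA-MB-231 (0.392), without any of the 4 Hs578T control lists (up to 0.299) or without a control TWEAK list of MDA-MB-231 (0.0874 and 0.229 in that line).

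**Figure D4:**
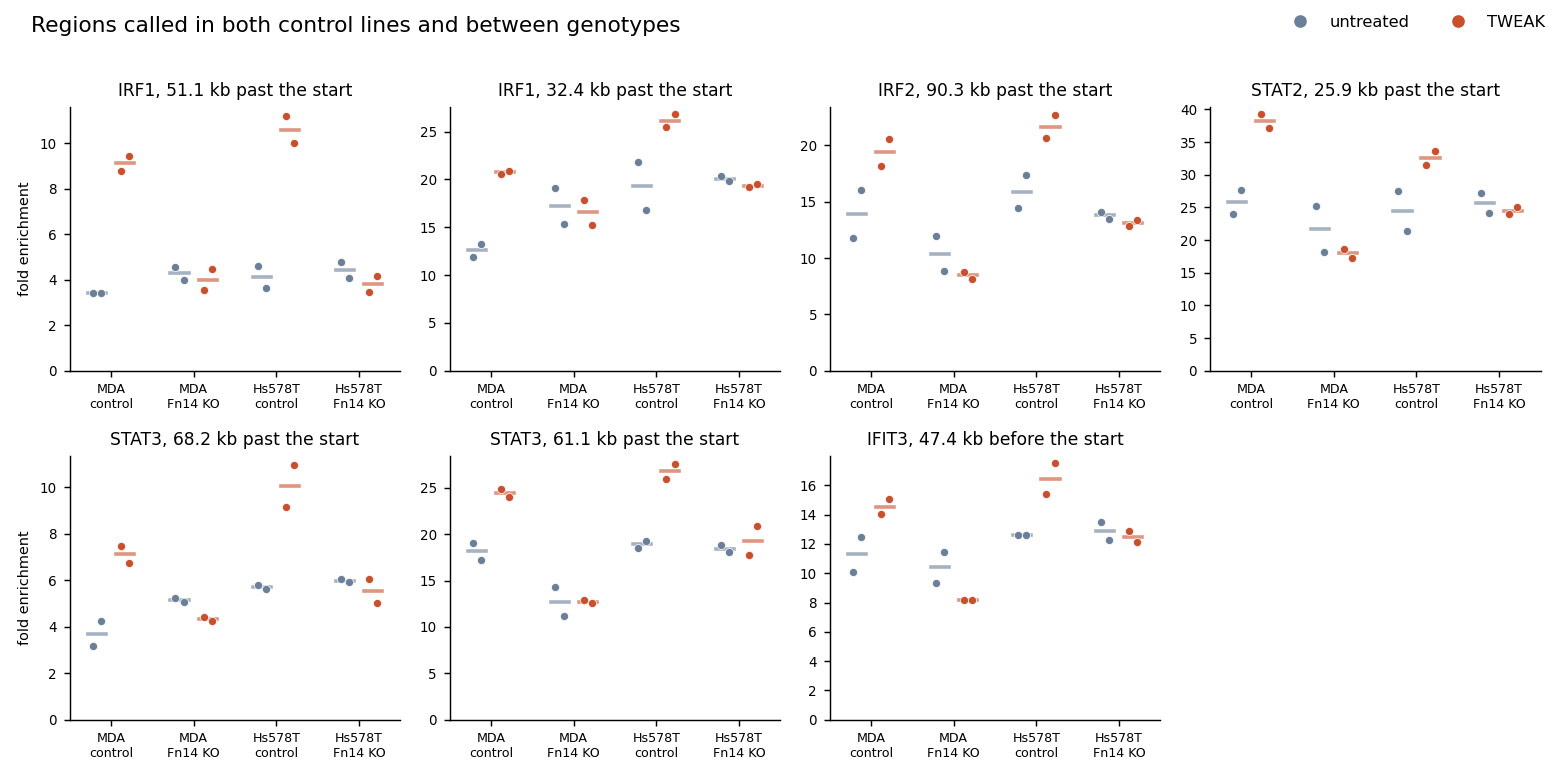
Fold enrichment (y axis, from 0) of the 7 regions in each list, titled by the nearest member and the distance of the region's middle from its start. Orange TWEAK points stand above the blue-grey untreated points in both control lines for each region, and no region shows this in both Fn14 KO lines.

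Among the member regions, 2 fell in Hs578T control cells and 0 in MDA-MB-231 control cells. These and the regions near IRF9 below were chosen after their values were seen. In the ISG15 locus, a region in PERM1 36.7 kb before the ISG15 start fell by 0.71 on the log2 scale in Hs578T control cells, with an adjusted p of 0.000782, and its genotype difference was −0.60. In the IRF7 locus a region in an intron of DEAF1 fell by 0.57 in Hs578T control cells, with an adjusted p of 0.0130. Near IRF9, the start-site regions of PSME1 and PSME2, subunits of the proteasome activator that interferon-γ induces, were higher after TWEAK in MDA-MB-231 control cells (0.47 ± 0.17 and 0.57 ± 0.15, SE), with adjusted p of 0.0287 and 0.00191. Their genotype differences also passed, with adjusted p of 0.0288 and 0.0197, while in Hs578T control cells the adjusted p was 0.0813 and 0.278.

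**Figure D5:**
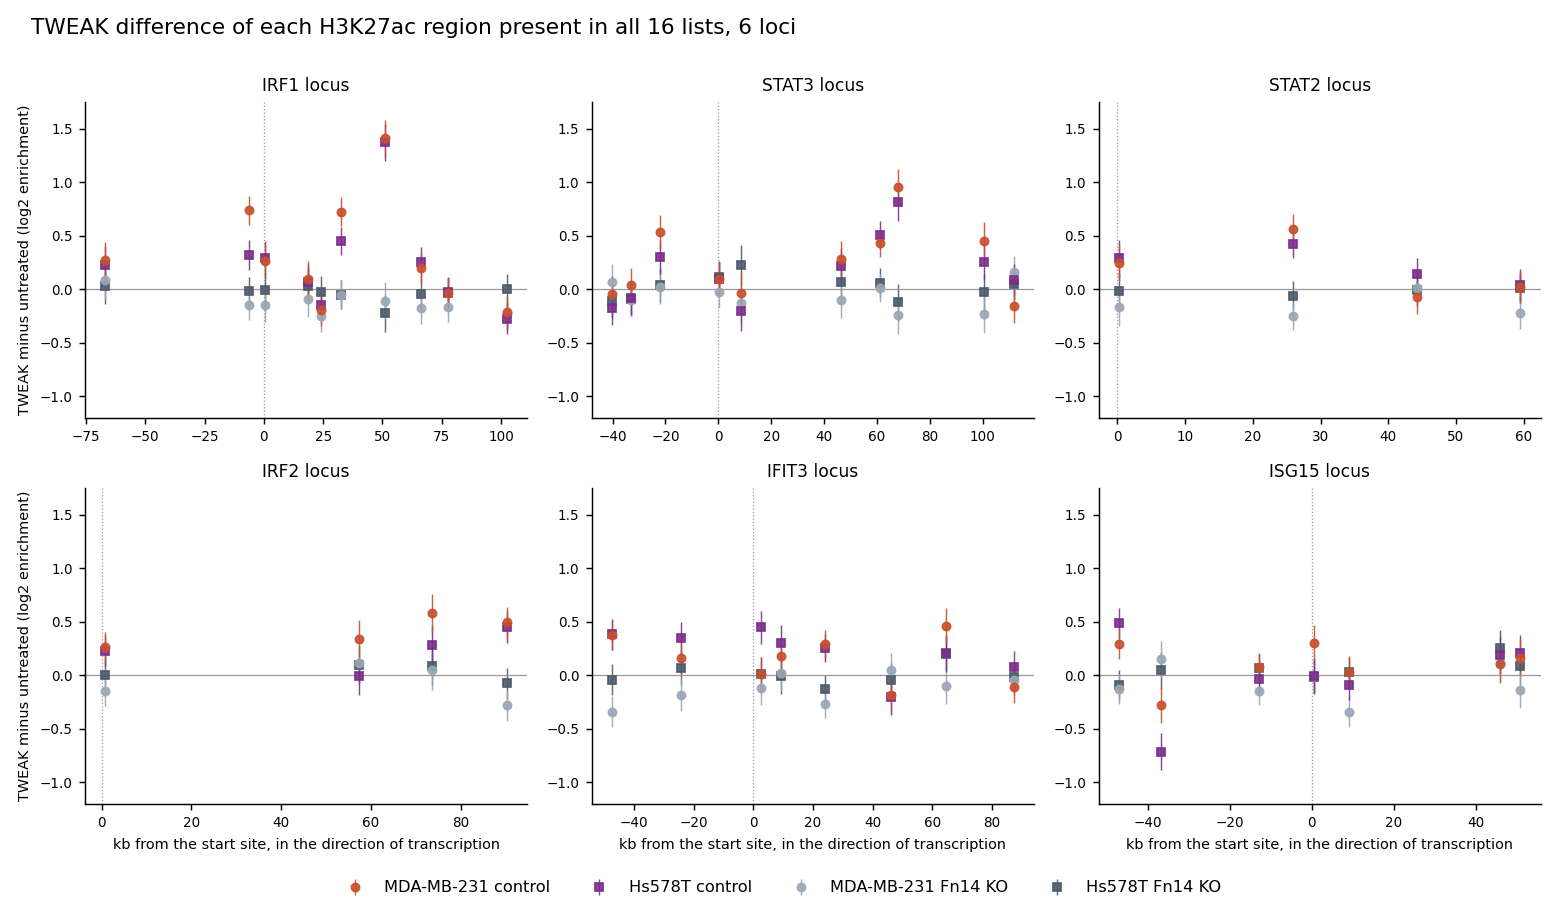
TWEAK minus untreated log2 enrichment (y axis, limma estimate with SE bars) of each region present in all 16 lists, in 6 member loci, against the distance in kb from the member's start in the direction of transcription. In the IRF1 and STAT3 loci the control estimates of both lines peak at 51.1 and 68.2 kb past the start, at 1.41 and 0.95 in MDA-MB-231, while the Fn14 KO estimates there lie below 0 in both lines.

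Regions present or absent as a whole gave few differences. Called gained when both TWEAK lists held a peak and no untreated list did, 2 of the 84 member regions were gained in each control line (2.38%), beside 5.58% and 5.09% of all regions. Lost regions numbered 1 in each line (1.19%), beside 4.49% and 4.65%. In Fn14 KO cells 0 were gained and 0 lost in MDA-MB-231 (0.321% and 1.35% of all) and 1 was gained and 1 lost in Hs578T (1.05% and 0.829%).

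The gained region nearest a member start lay at chr17:42397706-42400315, 9264 bp from the STAT3 start. It was gained in Hs578T control cells, where it had no peak untreated and 4.85 and 6.12 with TWEAK. Of the MDA-MB-231 control lists, 1 untreated list held it at 2.42 and the TWEAK lists at 6.83 and 6.93. All 8 Fn14 KO lists lacked a peak there. In the IRF1 locus, the region at chr5:132447786-132448732, 920 bp from the start of ENSG00000283782, appeared in MDA-MB-231 control cells (3.46 and 3.07) and was present in 3 of 4 Hs578T control lists and in 0 Fn14 KO lists. The other gained regions were chr10:89309435-89310233 in MDA-MB-231 (2.58 and 2.62), 18.2 kb before the IFIT3 start, and chr11:586809-589414 in Hs578T, in PHRF1 of the IRF7 locus. The lost regions were chr11:642708-643634 (4.28 and 5.46 untreated) in MDA-MB-231, in the IRF7 locus, and chr17:42436244-42437245 (4.71 and 2.97 untreated) in Hs578T, 12988 bp from the CAVIN1 start.

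The total length under peaks in the locus separated the members differently. STAT2, the partner of IRF9, was the only one of the 9 to pass with TWEAK. Its locus was covered by 9.93 and 11.6 kb untreated against 14.6 and 14.7 kb after TWEAK in MDA-MB-231 control cells, and by 11.2 and 10.6 kb against 14.4 and 13.1 kb in Hs578T control cells. In cells lacking Fn14, it was covered by 10.6 and 9.30 kb against 9.94 and 10.8 kb, and by 9.69 and 9.60 kb against 8.73 and 9.64 kb. The difference was 3.89 ± 0.87 kb (SE) in MDA-MB-231, with an adjusted p of 0.0151, and 2.88 kb in Hs578T, with an adjusted p of 0.0586. The genotype difference was 3.41 kb with an adjusted p of 0.0344, a call that was lost with a 100 kb flank (0.221), with peaks of −log10 q of at least 2 (0.106) and when any 1 of 12 lists was left out. The MDA-MB-231 call was lost with the 100 kb flank (0.127) and without control untreated replicate 1 or either control TWEAK replicate.

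STAT3, the IL-6 mediator, was covered by 22.1 and 29.5 kb against 31.4 and 31.9 kb in MDA-MB-231 control cells, a difference of 5.85 ± 3.12 kb (SE) with an adjusted p of 0.324. It was 2.16 kb without control untreated replicate 1 and 9.54 kb without control untreated replicate 2. Scaled to each list's whole covered length, its difference was 6.73 kb with an adjusted p of 0.0104. IRF1 was covered by 45.9 and 42.5 kb against 39.0 and 38.0 kb in Hs578T control cells, 5.71 kb less with TWEAK (adjusted p = 0.313), although its highest enrichment was larger in both TWEAK lists.

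Over all genes, 6.54% passed in MDA-MB-231 and 7.48% in Hs578T control cells, and 5.22% in the genotype difference. In Fn14 KO cells 0% passed in either line, and the TWEAK effect differed between the lines for 0%. The median difference of the 9 was 0.55 kb in MDA-MB-231 and −0.52 kb in Hs578T control cells, beside −0.12 and −0.35 kb over all genes.

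Untreated Fn14 KO cells were compared with untreated control cells. In MDA-MB-231, 48.9% of all start sites passed and the median over all genes was −0.34, so changes are read against that shift. IRF2 and IRF9 were lower, by 0.33 and 0.60 on the log2 scale, with adjusted p of 0.0443 and 0.0184. After centring neither passed, with differences of 0.01 and −0.26, and IFIT1 (0.59, adjusted p = 0.00977) and STAT2 (0.46, adjusted p = 0.0352) were instead higher. Both uncentred calls were also lost without untreated replicate 2 of the control cells (0.537 for IRF2 and 0.200 for IRF9) or of the Fn14 KO cells (0.311 and 0.233). Among regions, where the median over all was −0.22 and 32.5% passed, 4 of the 56 were higher and 12 lower. Over all 28337 regions, 770 were higher and 8443 lower. After centring the member split was 8 and 4, and that over all regions is not given here. Of the 10 regions tested in the IRF1 locus, 3 were higher in the KO cells and 0 lower without centring. The region 32.4 kb past the start was among the 3 (0.45, adjusted p = 0.00764). Locus covered length passed for 1.2% of genes and 0 members. In Hs578T the start sites passed for 0.147% of genes, covered length for 0.471% and regions for 1.09%, with 0 members or member regions in each by limma. At an unadjusted p under 0.05 by limma there were 0 members for both measures, beside 847 of 10909 start sites and 1495 of 17202 loci. For regions there were 3 of the 56, beside 3498 of 28337.

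The lines were compared in untreated control cells. Here 38.9% of start sites passed with a median of −0.26 for Hs578T minus MDA-MB-231. IFIT3 was higher in Hs578T by 0.47 (adjusted p = 0.0290), and IRF1, STAT3 and IRF9 were lower, by 0.55, 0.49 and 0.52. After centring only IFIT3 of the 9 still passed (0.74, adjusted p = 0.00845), though its call without centring was lost without Hs578T control untreated replicate 1 (0.541) or MDA-MB-231 control untreated replicate 2 (0.305). The calls of IRF1, STAT3 and IRF9 were lost without replicate 2 of the untreated control lists of either line, with adjusted p from 0.0776 to 0.337. Of the 56 regions, 5 were higher and 12 lower in Hs578T. Over all 28337 regions 28.6% passed, with 2843 higher and 5264 lower. After centring the member split was 9 and 11, and that over all regions is not given here. The ISG15 locus held 6 of the 12 that were lower without centring, among them the HES4 start-site region (−1.01, adjusted p = 4.99e-08). The IRF1 locus was covered by 11.2 kb more in Hs578T (adjusted p = 0.0486), beside 6.36% of genes passing, a call lost in 13 of the 16 fits that left out 1 list.

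By start-site level in untreated MDA-MB-231 control cells, IRF2 (12.3 and 16.1), IFIT3 (14.6 and 11.7) and STAT3 (11.4 and 13.3) were highest, with ranges that overlap each other. IRF1, ISG15, IRF7, IRF9 and STAT2 followed at 6.31 to 10.5, and IFIT1 (5.17 and 4.86) was lowest and did not overlap the others. In Hs578T untreated control cells IFIT3 (22.3 and 14.6) was highest, and IFIT1 (4.51 and 4.38) was again lowest. Fold enrichment is the ratio within a peak and does not scale with gene length.

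The genes whose start-site log2 enrichment was most like that of IRF2 over the 16 lists were CCNG2, GLIS2 and GHITM, with Pearson r of 0.959, 0.945 and 0.943 among 10908 genes. For IRF1 they were USF1, GNAI3 and RSRC1, with 0.927, 0.923 and 0.911. The lists share line and genotype, so these values describe the pattern across groups and carry no p.

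Other genes of the pathway were read from a list of 98 ligands, receptors, kinases, sensors, inhibitors and interferon-stimulated genes, of which 68 had a start-site peak in all lists. With TWEAK, 11 of the 68 rose and 2 fell in MDA-MB-231 control cells, 5 rose and 1 fell in Hs578T control cells, and in the genotype difference 13 were higher and 0 lower. Over all genes, 10.6%, 6.7% and 10.2% passed in these comparisons in either direction. The median genotype difference of the 68 was 0.11, beside 0.06 over all genes. Neighbouring genes of the list can share a peak, so these counts are not of independent genes.

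Of 7 sensors and adaptors tested, 2 passed in the genotype difference. IFIH1, which encodes the sensor MDA5, rose by 1.07 ± 0.14 (SE) on the log2 scale in MDA-MB-231 and by 0.61 ± 0.14 in Hs578T control cells, with adjusted p of 2.17e-06 and 0.00461 and a genotype difference of 0.79 (adjusted p = 0.000186). The Hs578T call was lost without control TWEAK replicate 2 (adjusted p = 0.0878). RIGI, the sensor RIG-I, had a genotype difference of 0.46 (adjusted p = 0.0360), a call lost in 13 of the 16 fits that left out 1 list (adjusted p up to 0.0872). Of the kinases that phosphorylate IRF3 and IRF7, TBK1 rose by 0.57 in MDA-MB-231 control cells (adjusted p = 0.00191) and had a genotype difference of 0.48 (adjusted p = 0.00999). In Hs578T control cells its difference was 0.13 and did not pass by limma (adjusted p = 0.611). IKBKE gained 6.98 and 4.67 kb of covered length in the control lines, with adjusted p of 0.000368 and 0.00696, and a genotype difference of 5.89 kb (adjusted p = 0.00160). With a 100 kb flank the Hs578T and genotype calls were lost (0.166 and 0.0609), and the Hs578T call was also lost without control TWEAK replicate 1 (0.0821).

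Of 43 interferon-stimulated genes listed, 30 were tested at the start site. In the genotype difference 6 were higher and 0 lower, beside 10.2% of all genes passing. The 6 were IFI44L, IFI44, DDX60, PSMB9, TAP1 and SAMD9, and neighbours among them can share a peak. SAMD9, an antiviral effector, had 0.71 (adjusted p = 0.00245) and IFI44 0.63 (adjusted p = 0.00879). In MDA-MB-231 control cells SAMD9 and IFI44 rose by 0.77 and 0.76 (limma, adjusted p of 0.00099 and 0.00126). In Hs578T control cells their differences were 0.37 and 0.49 and did not pass (limma, adjusted p of 0.153 and 0.0557). GBP5, an interferon-γ-induced GTPase, gained 1.71 kb of locus coverage in MDA-MB-231 and 0.90 kb in Hs578T control cells, with adjusted p of 0.000165 and 0.0136. The Hs578T call was lost without the variance trend (0.109), without control untreated replicate 1 (0.0998) and without either control TWEAK list (0.0919 and 0.0738). Among the 4 other STATs tested, STAT6 was higher by 0.50 in Hs578T control cells (adjusted p = 0.00818) with a genotype difference of 0.46 (adjusted p = 0.0123). In MDA-MB-231 control cells its difference was 0.35 and did not pass by limma (adjusted p = 0.0523). The Hs578T call was lost without either control untreated list (0.0773 and 0.0534) or control TWEAK replicate 1 (0.128), and the genotype call without MDA-MB-231 control untreated replicate 1 (0.0517) or Hs578T Fn14 KO untreated replicate 1 (0.0537).

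Of 8 receptor genes tested at the start site, 1 was higher in the genotype difference, IL6ST, the shared signalling chain of the IL-6 family. Of 10 tested for covered length, 3 were higher and 1 lower, beside 5.22% of all genes passing. The 3 were IL6ST, IFNAR2 and IFNAR1, and neighbouring genes can share peaks, so these calls are not independent. IFNAR2, a chain of the type I interferon receptor, was lower but did not pass at the start site. Its log2 differences there were −0.05 in MDA-MB-231 and −0.48 in Hs578T control cells (limma, adjusted p of 0.905 and 0.176). The genotype difference there was −0.26 (adjusted p = 0.492). Its covered length rose by 2.14 and 2.71 kb in the control lines, with adjusted p of 0.0194 and 0.00528. The MDA-MB-231 call was lost without the trend (0.0669), without control untreated replicate 1 (0.0972) and without either control TWEAK list (0.0898 and 0.15), and the Hs578T call without control untreated replicate 2 (0.0609). LIFR, a receptor of the IL-6 family that signals to STAT3, fell by 5.55 kb in MDA-MB-231 control cells and fell by 6.17 kb in Hs578T control cells, with adjusted p of 0.0110 and 0.00617 and a genotype difference of −5.56 kb (adjusted p = 0.0124). The calls within a line were lost without control untreated replicate 2 (0.0640) or either control TWEAK list of MDA-MB-231 (0.126 and 0.0618), and without replicate 1 of the control untreated (0.0561) or control TWEAK lists of Hs578T (0.0826).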

How the data were processed

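H3K27ac ChIP-seq was done on 8 groups with 2 lists each. Per the labels and the study's methods, the authors used Trimmomatic for trimming and Bowtie2 for alignment to hg38, and called broad peaks with MACS2 for each replicate after input subtraction and removal of blacklisted regions. Versions are not given in the sources used here. Each deposited list holds a score, a fold enrichment ratio, and −log10 p-value and q-value for each peak. Peaks at a weak q-value were listed, so absence of a peak means below the caller's threshold. Read depth is unknown.

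Genes were the protein-coding records of GENCODE 44. A start site was tested where all 16 lists held a peak within 2 kb, and a locus (gene body and 50 kb) where the mean covered length was at least 0.5 kb. Log2 enrichment or covered kb was fitted with limma 3.58.1 (R 4.3.3) over all genes, 8 groups, no replicate block and a mean-variance trend, with Benjamini-Hochberg adjustment at 0.05. Regions were merged peaks with at least 1 bp of overlap and a peak in at least 2 lists. Their enrichment was fitted where all 16 lists held a peak, a fit added after the values were seen. The fits were tested on simulated data. Columns not mapped to a sample numbered 0.

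The 9 members, the list of 98 pathway genes, the markers and the motifs were chosen with earlier results of these data known. All members, every region gained or lost in control cells, the 10 pathway genes with the smallest adjusted p and the 3 genes most alike to each of 2 members were named. Alternatives were the trend, centring, window, flank, start definition, filters, peak threshold, scaling, replicate block and leaving out each list. Some items are not reported here.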

Additional observations from a re-analysis of the deposited data

Results flagged for a closer look

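The TWEAK effect in control cells minus that in Fn14 KO cells, averaged over both lines, passed the limma test for STAT2 covered length and for the 7 regions named for passing in both control lines. Other regions and pathway genes that passed it are given above. The covered length of the STAT2 locus differed by 3.41 kb. Enrichment on the log2 scale differed by 1.56 at the region 51.1 kb past the IRF1 start and by 0.64 at the one 32.4 kb past it. At the STAT3 regions 68.2 and 61.15 kb past the start it differed by 1.07 and 0.43. It differed by 0.65 at the PAN2 start in the STAT2 locus, by 0.65 at the far end of IRF2 and by 0.57 at the region 47.4 kb before the IFIT3 start. Over all regions 28.6% passed this comparison. Groups of 2 lists are too small to look for single lists far from the others.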

How the results depend on the processing

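The number of members that passed at the start site went from 0 to 1 after TWEAK in MDA-MB-231 control cells without the variance trend, after centring and with the replicate block, and from 0 to 1 in Hs578T with the replicate block. For Fn14 KO minus control in untreated MDA-MB-231 it went from 2 to 1 without the trend and to 0 with a peak in at least 1 list, and for the lines from 4 to 1 after centring and to 2 with a peak in at least 1 list. The IRF2 difference between genotypes in untreated MDA-MB-231 changed sign after centring, to 0.0128. For covered length, MDA-MB-231 went from 1 to 2 when scaled and 0 at 100 kb. Hs578T went from 0 to 1 without the trend, when scaled and at 25 kb. The genotype difference went from 1 to 2 when scaled and to 0 at 100 kb, at −log10 q of at least 2 and with trimmed lists. Genotype in untreated MDA-MB-231 went from 0 to 1 when scaled. The lines went from 1 to 2 when scaled and to 0 at 25 kb, 100 kb, −log10 q of at least 2 and with trimmed lists. Regions for genotype in untreated MDA-MB-231 went from 16 to 10 with a peak in at least 2 lists. The causes were not tested.

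Gained member regions in MDA-MB-231 control cells went from 2 to 5 when a list's peaks had to cover 0.5 of the region and to 4 at 100 kb, and lost ones from 1 to 2 with that cover, the stricter q, trimmed lists and 100 kb and to 0 at 25 kb. In Hs578T control cells gained ones went from 2 to 4 with the stricter q and trimmed lists, and lost ones from 1 to 3 with that cover and to 0 with the stricter q, trimmed lists and 25 kb. In Hs578T Fn14 KO cells gained ones went from 1 to 2 with that cover and to 0 with the stricter q, trimmed lists and 25 kb, and lost ones to 3 with that cover, 2 at 100 kb and 0 with the stricter q and trimmed lists. In MDA-MB-231 Fn14 KO cells gained ones went from 0 to 1 with trimmed lists.

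Leaving out 1 list at a time, with a lone list assumed to vary like the others, gave 0 to 1 members at the start site in each TWEAK comparison of control cells and in the genotype difference, 0 to 3 for genotype in untreated MDA-MB-231 and 0 to 5 for the lines. Covered length gave 0 to 1 in the same TWEAK comparisons and 0 to 2 for the lines. Member regions that passed numbered 8 to 14 in MDA-MB-231, 6 to 12 in Hs578T, 13 to 19 in the genotype difference, 6 to 18 for genotype in untreated MDA-MB-231 and 12 to 20 for the lines. Gained and lost regions were 2 to 5 and 1 to 5 in MDA-MB-231 control, 2 to 4 and 1 to 3 in Hs578T control, 0 to 6 and 0 to 3 in MDA-MB-231 Fn14 KO, and 1 to 3 and 1 to 2 in Hs578T Fn14 KO cells. Of 976 such fits of 61 named results, 857 kept their call and direction, 111 lost the call, 8 gained it and 0 reversed. These counts do not measure stability. A comparison of 2 groups uses only their lists, so leaving out any other list could not change its estimate or direction. Most of the 61 were picked because they had passed, and those that had not count as kept when they still did not.

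Deviations of same-numbered replicates from their group means correlated at −0.02 to 0.17 for start sites, −0.06 to 0.24 for covered length and −0.01 to 0.25 for regions. Some of these values were above 0.1 and others were not, and they do not settle whether same-numbered lists were paired. The lowest value of each range was that of Hs578T control cells. The main fits held no replicate block. With the replicate block, 18 member regions passed the genotype difference, against 14 without it, and the adjusted p of IFIT1 in MDA-MB-231 was 0.0476 and that of IFIT3 in Hs578T 0.00707. Depth is unknown, so no counting interval was given.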
